A study of Mus musculus with 8 samples.

Results

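The angiopoietin and Tie receptor axis was described in brain endothelial cells (ECs) through 7 genes, *Angpt1*, *Angpt2*, *Tek*, *Tie1*, *Ptprb*, *Angptl2* and *Angptl4*. They were taken by symbol from a fixed list, which was drawn up with earlier results of these data known. The count files held 49315 gene identifiers, and all 7 genes had enough reads to be tested. ECs came from P9 brains of 4 mutant and 4 wild-type pups, with 1 RNA sequencing library per pup. Mutant pups, labelled Map2k1 K57N, carried the *R26*GT-Map2k1-GFP allele, from which a CAG promoter drives a *Map2k1* cDNA (p.K57N) and GFP once a stop cassette is removed, together with the *Tg-Cdh5CreER* transgene, whose tamoxifen-dependent Cre is expressed in endothelium. Wild-type pups were littermates labelled wild type, and whole litters received tamoxifen at P1, so that both groups share the treatment. Both strains were backcrossed to C57BL/6J. Only part of the ECs of a mutant brain recombines, and the transgene is driven from *Rosa26* rather than from *Map2k1* itself, so each mutant library mixes recombined and unrecombined ECs. Cells were selected with beads against CD31.

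Angiopoietins are secreted ligands of Tie2, the receptor tyrosine kinase encoded by *Tek*. Angiopoietin-1, made largely by pericytes and other perivascular cells, activates Tie2 and keeps vessels quiescent. Angiopoietin-2 is made by ECs, stored in Weibel-Palade bodies and released on activation, and it mostly antagonises Tie2, loosening contacts between ECs and mural cells. Tie1 is a related receptor that binds Tie2 at the cell surface and modulates it. VE-PTP, encoded by *Ptprb*, is an endothelial phosphatase that removes phosphate from Tie2 and also binds VE-cadherin. The angiopoietin-like proteins share the domain plan of the angiopoietins without binding Tie2, and of these *Angptl4* encodes an inhibitor of lipoprotein lipase and *Angptl2* a secreted inflammatory factor.

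RefSeq promoter sequences (GRCm38.p6) were at hand for 3 of the 7 genes, *Tek*, *Tie1* and *Angptl2*. The stretches of the 2 receptor genes are shown because the ratio of their transcripts is compared further on. For *Tek* the 250 bases before the start site are given, on the plus strand at chr4:94739039-94739288, and for *Tie1* 30 bases on the minus strand at chr4:118489914-118489943, which lie inside an exon of the longer gene model in the count files. Capitals mark a match to a searched motif.
Tek: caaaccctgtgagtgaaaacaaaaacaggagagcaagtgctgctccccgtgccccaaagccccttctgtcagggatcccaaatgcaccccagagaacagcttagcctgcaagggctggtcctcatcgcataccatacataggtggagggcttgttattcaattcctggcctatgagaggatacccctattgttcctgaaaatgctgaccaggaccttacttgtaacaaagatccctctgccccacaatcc
Tie1: ccccttccagagACTTCCaggccacaccca
The letters searched, on both strands, were GGAAGT (ETS factors), GTAAACA (FOXO), TGANTCA (AP-1), ACGTG (hypoxia-inducible factors) and the PPAR direct repeat. The *Tie1* stretch holds the ETS letters on the opposite strand, 82 to 77 bases before the start site, and 19.7% of 32851 promoters of the same length hold them. In *Tek* and *Angptl2* none of the 5 motifs was found in this window. FOXO letters were found in 3.17% of all promoters, AP-1 in 6.75%, hypoxia in 16.6% and PPAR in 0.0335%.

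Counts were scaled between libraries by the TMM method and are given as normalized counts at the mean library size. The genotypes were set against each other in edgeR's quasi-likelihood test, and Benjamini-Hochberg adjustment of p ran over the 16887 genes with enough reads. Between 24833373 and 34196955 reads per library were counted on genes. *Map2k1*, whose cDNA is carried by the recombined allele, had 12660 to 18687 normalized counts in mutant and 1502 to 1758 in wild-type libraries, which matches the label of each library. The endothelial markers were abundant in both groups, with a summed level over 13 genes of 417079 to 499100 in mutant and 399353 to 486612 in wild-type libraries. The 13 include *Tek* and *Tie1*, themselves genes of the axis. Of the 13, 3 were higher in mutant libraries at an adjusted p under 0.05 and 4 lower, where 21.5% and 22.9% of all genes were. *Pecam1*, which encodes the CD31 used for selection, was higher (log2 fold change 0.53), as were *Cdh5* (1.11) and *Emcn* (0.82). *Cldn5* (-0.47), *Kdr* (-0.59), *Eng* (-0.42) and *Tek* (-0.44) were lower. Markers of some other cell types were also unequal between the groups, and whether the number of such cells differed was not tested. All 8 markers of the oligodendrocyte lineage fell, from a summed 3066 to 8510 normalized counts in wild-type to 965 to 1925 in mutant libraries, as did all 6 red blood cell genes, from 15843 to 27482 to 2641 to 8508. Of 7 neuronal markers 4 were lower and the other 3 did not pass. Of these 3, *Rbfox3* lay higher in mutant libraries (log2 fold change 1.19, adjusted p = 0.0514, edgeR's quasi-likelihood test). The summed level of all 7 was 1030 to 1746 in wild-type and 626 to 875 in mutant libraries.

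Of the 7 genes, 4 passed an adjusted p of 0.05, against 44.4% of all genes tested. *Angpt2* was higher and *Angpt1*, *Tek* and *Ptprb* were lower in mutant ECs, where 21.5% of all genes were higher and 22.9% lower. *Tie1*, *Angptl2* and *Angptl4* did not pass. Where the change also had to exceed 1 on the log2 scale, a limit used by the study, *Angpt2* alone of the 7 was differentially expressed, against 14.0% of all genes (5.90% higher and 8.05% lower). The libraries of both groups did not overlap for 3 of the 7 genes (*Angpt2*, *Tek* and *Ptprb*), against 42.5% of all genes (20.6% higher and 21.9% lower). These shares of the list are close to the background, so the list as a whole is not set apart by them, and each gene is described by its own values. In bulk RNA, fewer cells expressing a gene and less of its RNA per cell cannot be told apart.

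**Figure D1:**
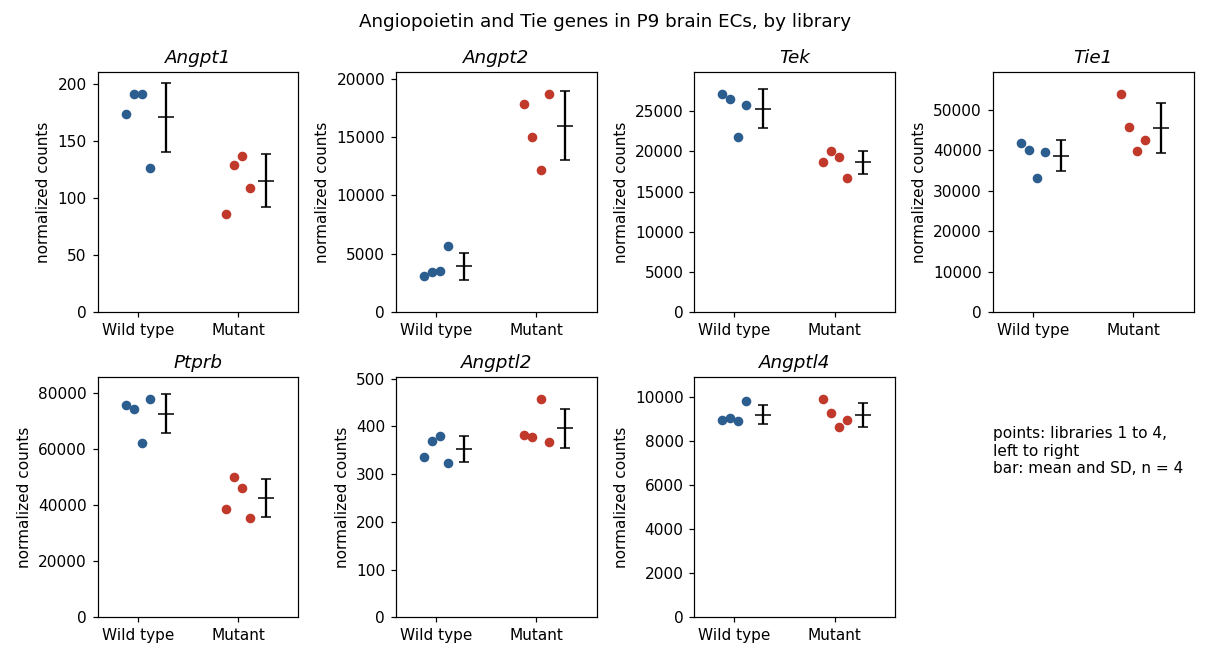
Normalized counts (vertical axes, from 0) of the 7 genes in each of the 4 wild-type (blue) and 4 mutant (red) libraries, with the mean and SD beside the points. All mutant points lie above the wild-type points for *Angpt2* and below them for *Tek* and *Ptprb*, while *Angpt1*, *Tie1*, *Angptl2* and *Angptl4* overlap between the groups.

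*Angpt2* (ENSMUSG00000031465), the antagonist ligand, is found on chromosome 8 (GRCm38, minus strand) between 18690263 and 18741562, with 3690 exonic bases in 10 merged exons. It had 17870, 15052, 12210 and 18724 normalized counts in mutant libraries 1 to 4 and 3072, 3467, 3509 and 5630 in wild-type libraries 1 to 4. The lowest mutant library held more than the highest wild-type library. Mutant ECs averaged 15964 ± 2954 and wild-type ECs 3919 ± 1157 (SD, n = 4). Expression was 4.07-fold higher in mutant ECs (95% interval 3.03 to 5.48), or 2.03 ± 0.19 (standard error) as a log2 fold change (adjusted p = 3.86e-05, edgeR's quasi-likelihood test). By log2 fold change it was in place 303 from the top of the 16887 genes. Wild-type library 4 stood above the other wild-type libraries, and leaving out any 1 library gave log2 fold changes of 1.95 to 2.25.

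The sample labels carry 3 prefixes, which hold replicates 1 and 2, replicate 3 and replicate 4 of each group. The study drew wild-type pups from the litters of the mutants, but no label says that a prefix marks a litter. Within them the log2 ratio of mutant to wild-type *Angpt2* was 2.33, 1.80 and 1.73. *Angpt2* lies inside the gene *Mcph1*, which is transcribed from the opposite strand on chromosome 8 between 18595131 and 18803189. The exons of both genes share 0 bases, although the strand setting of the counting is not given. *Mcph1*, which encodes a protein of chromosome condensation, was also higher, with means of 691 ± 65.8 normalized counts against 413 ± 32.2 in wild-type ECs (SD, n = 4, log2 fold change 0.74, adjusted p = 2.39e-04, edgeR's quasi-likelihood test). Whether reads of unspliced RNA from either gene reached the other was not tested.

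*Angpt1* (ENSMUSG00000022309), the activating ligand, lies on the minus strand of chromosome 15 from 42424727 to 42676977, with 4256 exonic bases. It was rare in these libraries, at 85.9, 129, 137 and 109 normalized counts in mutant and 174, 191, 191 and 126 in wild-type libraries. Wild-type library 4 lay within the mutant range, so the groups overlapped, although all 4 mutant libraries were below the wild-type mean. The means were 115 ± 22.9 (SD, n = 4) and 170 ± 30.6 (SD, n = 4), which is 1.48-fold lower in mutant ECs (log2 fold change -0.57, standard error 0.19, adjusted p = 0.0354, edgeR's quasi-likelihood test). Its raw counts were 68 to 221 per library, and the call was lost without any of 5 libraries. The adjusted p was 0.101 without mutant 1, 0.0897 without mutant 4, 0.0858 without wild type 1, 0.0926 without wild type 2 and 0.0802 without wild type 3 (same edgeR test), and the log2 fold change stayed between -0.69 and -0.43. Within the label prefixes the log2 ratio was -0.76, -0.48 and -0.22.

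Cells other than ECs make *Angpt1*, so markers of pericytes and platelets are given beside it. Smooth muscle and fibroblast markers are given at the end. Of 9 pericyte markers, *Abcc9* and *Kcnj8*, the subunits of a potassium channel, were higher in mutant libraries (log2 fold changes 1.78 and 0.81), and the other 7 did not pass. Their summed level was 22164 to 35238 in mutant and 19507 to 35398 in wild-type libraries, which is an overlap. Of 5 platelet genes tested, *Ppbp*, a platelet chemokine, was lower, and the summed level was 353 to 562 and 381 to 484. In the same fit 21.5% of all genes were higher and 22.9% lower. The fall of the oligodendrocyte markers and of 4 of 7 neuronal markers was in the same direction as that of *Angpt1*, and their part in it was not tested. A noncoding gene on the opposite strand, *Gm17473*, shares 283 exonic bases with *Angpt1*, or 6.65% of its exonic length, and had at most 3 counts in any library.

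*Tek* (ENSMUSG00000006386), the receptor for both ligands, lies on the plus strand of chromosome 4 from 94739289 to 94874976, with 4712 exonic bases. Mutant libraries had 18634, 20079, 19258 and 16696 normalized counts and wild-type libraries 27183, 26500, 21736 and 25774. All mutant libraries were below all wild-type libraries, with the narrowest gap at wild-type library 3. The means were 18667 ± 1441 (SD, n = 4) and 25298 ± 2444 (SD, n = 4). Mutant ECs thus held 73.8% of the wild-type level, or -0.44 ± 0.092 (standard error) as a log2 fold change (adjusted p = 0.00332, edgeR's quasi-likelihood test). It stayed between -0.50 and -0.36 with each library left out, and was -0.47, -0.17 and -0.63 within the label prefixes.

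*Tie1* (ENSMUSG00000033191), the co-receptor, lies on the minus strand of the same chromosome from 118471191 to 118490061, with 4917 exonic bases. It had 53952, 45634, 39848 and 42479 normalized counts in mutant and 41879, 39996, 33043 and 39452 in wild-type libraries. All mutant libraries were above the wild-type mean, yet mutant library 3 lay below wild-type libraries 1 and 2. The means were 45478 ± 6125 (SD, n = 4) and 38592 ± 3843 (SD, n = 4), a log2 fold change of 0.24 that did not pass (standard error 0.11, adjusted p = 0.108, edgeR's quasi-likelihood test). The 95% interval of the fold ran from 0.993 to 1.40. Within the label prefixes the log2 ratio was 0.28, 0.27 and 0.11, and with the prefix as a block in the fit the adjusted p was 0.0255 (edgeR's quasi-likelihood test).

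*Ptprb* (ENSMUSG00000020154), which encodes VE-PTP, lies on the plus strand of chromosome 10 from 116301374 to 116389538, with 11912 exonic bases. Mutant libraries had 38624, 49943, 46111 and 35453 normalized counts and wild-type libraries 75574, 74357, 62196 and 77755. The groups were well apart, the highest mutant library lying below the lowest wild-type library. The means were 42533 ± 6661 (SD, n = 4) and 72470 ± 6993 (SD, n = 4), which is 1.70-fold lower in mutant ECs (log2 fold change -0.77, standard error 0.12, adjusted p = 6.10e-04, edgeR's quasi-likelihood test). It stayed between -0.85 and -0.67 with each library left out, and was -0.76, -0.43 and -1.13 within the label prefixes.

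*Angptl4* (ENSMUSG00000002289), the lipoprotein lipase inhibitor, lies on the minus strand of chromosome 17 from 33773750 to 33781575, with 3286 exonic bases. Its libraries had 9897, 9264, 8605 and 8931 normalized counts in mutant and 8960, 9024, 8917 and 9810 in wild-type ECs. The mutant libraries surrounded the wild-type values, with 2 above and 2 below the wild-type mean. The means were 9174 ± 552 (SD, n = 4) and 9178 ± 424 (SD, n = 4), with a 95% interval of the fold from 0.897 to 1.11 (adjusted p = 0.995, edgeR's quasi-likelihood test). The sign of its log2 fold change turned with the normalization. *Angptl2* (ENSMUSG00000004105) lies on the plus strand of chromosome 2 from 33216069 to 33247717, inside *Ralgps1* on the opposite strand, with 0 exonic bases shared. It had 381, 378, 458 and 367 normalized counts in mutant and 336, 369, 380 and 323 in wild-type libraries, and the groups overlapped. Its log2 fold change of 0.17 did not pass (standard error 0.11, adjusted p = 0.231, edgeR's quasi-likelihood test), and the 95% interval of the fold ran from 0.952 to 1.33. *Ralgps1*, an exchange factor for a Ral GTPase, had 242 ± 38.4 (SD, n = 4) and 321 ± 50.6 (SD, n = 4) normalized counts (log2 fold change -0.41, adjusted p = 0.0482, same edgeR test).

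**Figure D2:**
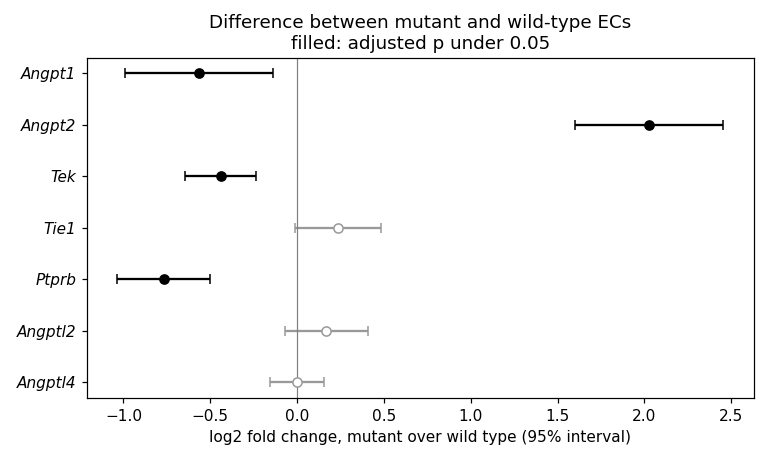
Log2 fold change of mutant over wild-type ECs (horizontal axis) with its 95% interval for the 7 genes, filled where the adjusted p was under 0.05. *Angpt2* lies at 2.03, *Ptprb*, *Angpt1* and *Tek* lie between -0.77 and -0.44, and the intervals of *Tie1*, *Angptl2* and *Angptl4* include 0.

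To compare genes with each other, levels were divided by exonic length and given as RPKM, the read count per kilobase scaled to library size. In wild-type ECs *Tie1* was the most abundant of the 7, at 265 ± 26.4 RPKM (SD, n = 4). *Ptprb* followed at 205 ± 19.8 and *Tek* at 181 ± 17.5 (SD, n = 4), and the ranges of these 2 genes overlapped, although *Ptprb* was above *Tek* in 4 of 4 libraries. *Angptl4* had 94.3 ± 4.35 and *Angpt2* 35.9 ± 10.6 RPKM (SD, n = 4). *Angptl2* and *Angpt1* were far below, at 1.89 ± 0.145 and 1.35 ± 0.243 RPKM (SD, n = 4).

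In mutant ECs *Tie1* remained the most abundant at 312 ± 42.1 RPKM (SD, n = 4), and the order below it differed. *Angpt2* came next at 146 ± 27.0, followed by *Tek* at 134 ± 10.3, *Ptprb* at 121 ± 18.9 and *Angptl4* at 94.3 ± 5.67 (SD, n = 4). The ranges of *Angpt2* and *Tek* overlapped, with *Angpt2* the higher in 2 of 4 libraries, as did those of *Tek* and *Ptprb*, and of *Ptprb* and *Angptl4*. *Ptprb* was below *Tek* in 4 of 4 mutant libraries, the reverse of the wild-type order. *Angptl2* at 2.13 ± 0.223 and *Angpt1* at 0.914 ± 0.182 RPKM (SD, n = 4) stayed lowest.

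**Figure D3:**
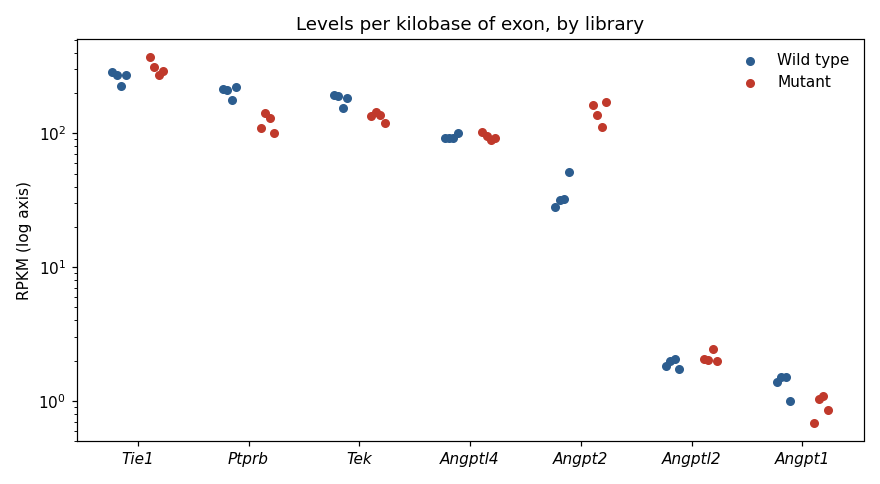
RPKM (log axis) of the 7 genes in each library, in the order of the wild-type means (wild type blue, mutant red). *Angpt2* moved from a wild-type mean of 35.9 to a mutant mean of 146 RPKM, close to *Tek* and *Ptprb*, while *Angptl2* and *Angpt1* stayed under 3 RPKM in every library.

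Ratios within a library do not depend on the scaling between libraries, and 3 of them were compared between the groups by exact permutation. The log2 ratio of *Angpt2* to *Angpt1*, per kilobase, was 7.91, 7.07, 6.68 and 7.64 in mutant and 4.35, 4.39, 4.41 and 5.68 in wild-type libraries. The groups were apart, and wild-type library 4 was the wild-type library nearest to the mutants. The means were 7.32 ± 0.55 (SD, n = 4) and 4.71 ± 0.65 (SD, n = 4), a difference of 2.62, or a 6.13-fold higher ratio (exact two-sided permutation test, p = 0.0286). No smaller p can be had with 4 libraries in each group. The ratio of ligands reads both the rise of *Angpt2* and the low count of *Angpt1*. Cells other than ECs make *Angpt1*, and their part in this ratio was not tested.

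The log2 ratio of *Tie1* to *Tek* was 1.47, 1.12, 0.99 and 1.29 in mutant and 0.56, 0.53, 0.54 and 0.55 in wild-type libraries. The wild-type libraries were nearly alike, with a mean of 0.55 ± 0.013 (SD, n = 4), whereas the mutant libraries spread around 1.22 ± 0.21 (SD, n = 4). The receptors thus differed by 0.67 on the log2 scale, a 1.59-fold higher ratio of *Tie1* to *Tek* in mutant ECs (p = 0.0286 by the same exact permutation test). The log2 ratio of *Ptprb* to *Tek* was -0.29, -0.023, -0.078 and -0.25 in mutant and 0.14, 0.15, 0.18 and 0.26 in wild-type libraries. The phosphatase therefore fell further than its receptor substrate, by a difference in means of -0.34 (p = 0.0286 by the same exact permutation test). The 3 tests give the same p, and it stays 0.0286 after Benjamini-Hochberg adjustment over them.

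**Figure D4:**
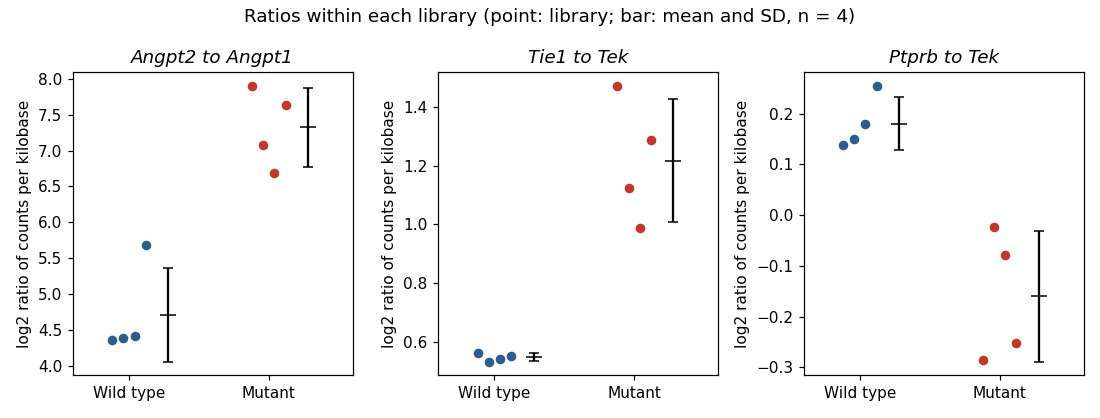
Log2 ratios of counts per kilobase within each library for *Angpt2* to *Angpt1*, *Tie1* to *Tek* and *Ptprb* to *Tek* (vertical axes, which do not start at 0), with the mean and SD beside the points (n = 4). In each panel the mutant (red) and wild-type (blue) libraries do not overlap, and the wild-type points for *Tie1* to *Tek* span only 0.53 to 0.56.

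Of the other ligands of the family, *Angptl1*, *Angptl6* and *Angptl8* had enough reads to be tested, while *Angpt4* and *Angptl7* did not. *Angptl6* averaged 12.3 ± 4.1 in mutant and 23.2 ± 6.52 in wild-type ECs (SD, n = 4, log2 fold change -0.93, adjusted p = 0.0463, edgeR's quasi-likelihood test). Its adjusted p lay between 0.0198 and 0.139 over the alternatives, and it did not pass without mutant 1, 3 or 4 or without wild type 1, 2 or 3. *Angptl1* and *Angptl8* did not pass.

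Of 10 other ligands, shedding proteases and integrin receptors tested, 5 were higher and *Adam10*, a shedding protease, was lower in mutant ECs, where 21.5% of all genes were higher and 22.9% lower, with a median log2 fold change of 0.36 where all tested genes had -0.025. *Itgb3*, the beta subunit of an integrin that binds angiopoietin-2, rose 24.7-fold from 303 ± 35 to 7486 ± 2554 normalized counts (SD, n = 4), and *Itgav*, its alpha partner, 2.39-fold from 2620 ± 952 to 6257 ± 842 (SD, n = 4). *Mmp14*, a membrane-bound metalloprotease that sheds Tie2, rose 3.67-fold from 2299 ± 58.4 to 8439 ± 2088 (SD, n = 4). The adjusted p of these 3 was 7.27e-07, 0.00123 and 9.57e-06 (edgeR's quasi-likelihood test), and their groups did not overlap.

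Angiopoietin-2 is stored in Weibel-Palade bodies with von Willebrand factor. Of 18 genes of these granules, 8 were higher in mutant ECs and the other 10 did not pass, where 21.5% of all genes tested were higher and 44.4% passed in either direction. Their median log2 fold change was 0.22, against -0.02 for all genes. *Rab15*, a small GTPase of granule release, rose 11.8-fold from 142 ± 38.8 to 1676 ± 298 normalized counts (SD, n = 4, adjusted p = 1.45e-06, edgeR's quasi-likelihood test). The granule membrane proteins *Cd63* and *Selp* (P-selectin) rose 2.49-fold and 2.38-fold (adjusted p = 0.00297 and 9.24e-04, same edgeR test). *Vwf* itself, named after its values were seen, had 174467 ± 28492 normalized counts in mutant and 78510 ± 7776 in wild-type ECs (SD, n = 4, log2 fold change 1.15, adjusted p = 7.42e-05, same edgeR test). Without wild type 3, or without wild type 4, 5 of these genes passed.

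Downstream of Tie2, 5 of 19 adaptors, kinases and transcription factors were higher and 5 lower, against 21.5% and 22.9% of all genes, with a median log2 fold change of -0.02. The largest differences were in a pair of related adaptors. *Grb14* was 6.41-fold lower, with 191 ± 96.6 normalized counts in mutant and 1218 ± 108 in wild-type ECs (SD, n = 4), and *Grb7*, which binds phosphorylated Tie2, was 4.84-fold lower, with 127 ± 36.3 and 614 ± 67.9 (SD, n = 4). Their adjusted p was 8.71e-05 and 1.51e-05 (edgeR's quasi-likelihood test). Among genes named after their values were seen, *Foxo1* was higher, with overlapping groups (log2 fold change 0.48, adjusted p = 0.0148, same edgeR test). It encodes the transcription factor that Tie2 signalling keeps out of the nucleus and that activates *Angpt2*. The related *Foxo3* was lower, also with overlapping groups (-0.25, adjusted p = 0.0403, same edgeR test). *Nos3*, endothelial nitric oxide synthase, was lower (-0.55, adjusted p = 8.35e-04, same edgeR test). Of 12 target genes of FOXO factors, 2 were higher and 3 lower, against 21.5% and 22.9% of all genes, with a median of -0.13. *Bcl6*, a transcriptional repressor, rose 2.13-fold from 422 ± 76.0 to 898 ± 167 (SD, n = 4, adjusted p = 3.80e-04, edgeR's quasi-likelihood test).

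Of 14 transcription factors known to act at *Angpt2* or *Tek*, 3 were higher and 6 lower, against 21.5% and 22.9% of all genes, with a median log2 fold change of -0.22. *Klf2*, a flow-induced factor that represses *Angpt2*, was 3.29-fold lower, at 3224 ± 886 normalized counts in mutant against 10595 ± 972 in wild-type ECs (SD, n = 4, adjusted p = 4.38e-05, edgeR's quasi-likelihood test). *Foxc1* was 2.39-fold lower (adjusted p = 6.15e-05, same edgeR test). The other genes that passed had absolute log2 fold changes under 1.

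Among 7 junction and receptor partners of VE-PTP, 2 were higher and 1 lower, against 21.5% and 22.9% of all genes. VE-cadherin (*Cdh5*), the junction protein to which VE-PTP binds, rose 2.15-fold, the direction opposite to *Ptprb*. It went from 36155 ± 2561 to 77899 ± 12549 normalized counts (SD, n = 4, adjusted p = 6.04e-05, edgeR's quasi-likelihood test). The gene that was lower, *Kdr*, changed in the direction of *Ptprb* (log2 fold change -0.59, adjusted p = 0.00177, same edgeR test). Of the 17 other receptor-type phosphatases, 8 were lower and 4 higher, against 22.9% and 21.5% of all genes, with a median log2 fold change of -0.54. *Ptprn*, a phosphatase-like protein of secretory granules, rose 48.3-fold from 58.0 ± 24.5 to 2821 ± 1332 (SD, n = 4), and *Ptpre* 3.92-fold from 817 ± 303 to 3203 ± 465 (SD, n = 4). Among the lower ones were *Ptprr* (4.32-fold), *Ptprz1* (3.47-fold) and *Ptprd* (2.28-fold), and their adjusted p lay between 4.28e-05 and 2.59e-04 (edgeR's quasi-likelihood test). *Ptprz1* is abundant in glia of the oligodendrocyte lineage, whose markers also fell, and their part in its fall was not tested.

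For *Angptl4*, the genes of its enzyme and of its known inducers were read. Lipoprotein lipase (*Lpl*) rose 5.59-fold from 288 ± 131 to 1611 ± 291 normalized counts (SD, n = 4, adjusted p = 7.23e-05, edgeR's quasi-likelihood test), and *Gpihbp1*, which anchors it to capillaries, 2.66-fold from 107 ± 16.5 to 285 ± 89.5 (SD, n = 4, adjusted p = 6.87e-04, same edgeR test). Hepatic lipase (*Lipc*) was 2.60-fold lower, and the other 3 of these 6 genes did not pass, where 44.4% of all genes passed. Of 13 PPAR receptors and targets, 3 were higher and 4 lower, against 21.5% and 22.9% of all genes (median log2 fold change -0.09). Among them *Fabp4*, a fatty acid carrier, was 5.13-fold higher. Of 12 genes of the hypoxia response, 8 were higher and the other 4 did not pass (median 0.64), where 21.5% of all genes were higher and 44.4% passed. The largest rise among them was that of *Egln3*, an oxygen-sensing hydroxylase, at 16.8-fold (adjusted p = 4.77e-06, edgeR's quasi-likelihood test). *Angptl4*, itself a target of both responses, had an interval from 0.897 to 1.11 in fold.

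**Figure D5:**
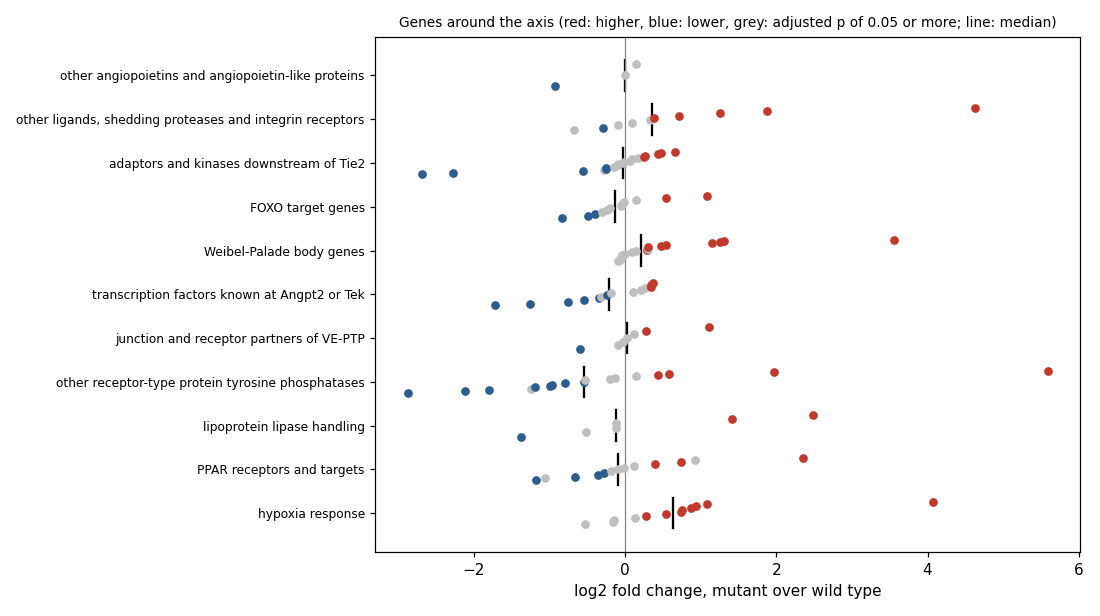
Log2 fold change of mutant over wild-type ECs (horizontal axis) for every tested gene of 11 lists around the axis (red higher, blue lower, grey not passed, black line the median). Weibel-Palade body and hypoxia genes that passed lie to the right of 0, and *Ptprn* at 5.59 is the highest point.

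The genes whose log2 CPM followed each member most closely over the 8 libraries were found among 11396 genes averaging 100 normalized counts or more. As all 8 libraries enter, a shared group difference adds to these correlations. For *Angpt2* they were *Pawr*, *Tagln2* and *Golt1b* (Pearson's r = 0.997, 0.997 and 0.996), and for *Tek* *Dhrs7*, *Ccser2* and *Frmd4b* (0.994, 0.993 and 0.992). *Tie1* was followed by *Ece1* (0.994), *Vsig10* (0.989) and *Cracr2b* (0.984), and *Ptprb* by *Rnf144b* (0.997), *Adgre5* (0.997) and *Gpd2* (0.996). The nearest genes to *Angpt1* were *Acss2* (0.974), *Dennd4b* (0.973) and *Fbxl18* (0.970), to *Angptl2* *Lama2* (0.952), *Fads3* (0.952) and *Chd4* (0.950), and to *Angptl4* *Ube2h* (0.964), *Paip1* (0.948) and *Magi3* (0.938).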

How the data were processed

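RNA of brain ECs was sequenced from 4 pups per genotype, grouped by sample title. The authors used Trimmomatic for trimming and STAR for alignment (GRCm38), and the deposited values are raw counts per gene in each library. The counting program, annotation release and strand setting are not given in the sources used here, so overlapping genes on opposite strands are uncertain. A deposited table of DESeq2-normalized counts was not used here. Symbols were matched for 48970 of 49315 identifiers.

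The fit used edgeR 4.0.16 under R 4.3.3 (TMM, filterByExpr with a minimum count of 10, glmQLFit, glmQLFTest, no covariate), and DESeq2 1.42.0 as an alternative. Intervals and standard errors of fold changes come from the edgeR fit. Exact permutation tests used scipy 1.17.1. Replicates of a group differed by more than counting error (chi-square per degree of freedom 7.25 to 41.6 over 12 pairs), so each was kept. The fit was tested on simulated counts of 16887 genes, where 97 of 100 genes changed by a log2 fold change of 1, 100 of 100 changed by 2 and 4 unchanged genes were called. The simulation changed 200 genes and gave every gene the same spread beyond counting error, so its shares need not hold for these data.

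Named genes are the 7 members, genes overlapping them, *Map2k1*, and from each list up to 3 genes in each direction with an adjusted p under 0.05, an absolute log2 fold change over 1 and at least 100 normalized counts on average in the group where they are higher, or otherwise the gene of smallest p, and the 3 genes most correlated with each member. Genes outside this rule (*Vwf*, *Foxo1*, *Foxo3*, *Nos3*, *Adam10*, *Kdr* and single markers) were chosen after their values were seen. Some genes of the lists are not reported here by name. Members and lists were chosen with earlier results of these data known. Marker lists covered ECs, pericytes, smooth muscle, fibroblasts, astrocytes, neurons, the oligodendrocyte lineage, microglia and macrophages, platelets, red blood cells and lymphatic endothelium.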

Additional observations from a re-analysis of the deposited data

Results flagged for a closer look

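In 20 groups of 4 libraries, made of the 7 genes and the 3 ratios in each genotype, 4 had a library whose gap to its nearest neighbour exceeded Dixon's critical share of the group's range, where chance alone flags about 1 group in 20. Of these, 3 concern wild-type library 4. It held 5630 normalized counts of *Angpt2*, and the other wild-type libraries held 3072 to 3509. Its log2 ratio of *Angpt2* to *Angpt1* was 5.68, and the others lay between 4.35 and 4.41. It also held 9810 normalized counts of *Angptl4*, and the others 8917 to 9024. In the remaining group, mutant library 3 held 458 normalized counts of *Angptl2*, and the other mutant libraries 367 to 381. Without wild-type library 4 the log2 fold change of *Angpt2* was 2.25 and the difference of the log2 ratio of *Angpt2* to *Angpt1* was 2.94.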

How the results depend on the processing

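The calls of *Angpt2*, *Tek* and *Ptprb* kept their direction and passed under DESeq2, other normalizations and filters, the blocks and each left-out library, with log2 fold changes of 1.95 to 2.25, -0.50 to -0.36 and -0.85 to -0.67. That of *Angpt1* was -0.69 to -0.43 with each library left out and lost its call in 5 of 8 cases, and the cause was not tested. *Angptl4* turned sign to 0.020 with DESeq2, 0.020 with its size factors in edgeR and 0.0052 with no low count filter, and lay between -0.014 and 0.037 with libraries left out. Differentially expressed genes numbered 1194 among genes averaging 100 normalized counts or more and 736 when tested with glmTreat against a log2 fold change of 1. They numbered 2356 in the fit reported, and between 2168 and 2849 in the other alternatives. Of the list of other angiopoietins, 0 genes passed with DESeq2, with its size factors in edgeR or with no low count filter (1 at an unadjusted p under 0.05 in each), and 0 to 1 with libraries left out. Among genes averaging 100 normalized counts or more, no gene of that list was left to test. Between 5 and 8 Weibel-Palade genes passed with libraries left out.

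Replicate numbers share no stated origin, and the deviations of same-numbered libraries correlated at 0.201, 0.210, 0.290 and 0.0241 (mutant 4 correlated best with wild type 3, at 0.384). With the replicate block 8162 genes passed, against 7504 without it. *Tie1* then passed (log2 fold change 0.23, adjusted p = 0.0274, edgeR), as it did with the label prefix as a block (0.24, adjusted p = 0.0255, edgeR). With the replicate block the ratio differences were 2.62, 0.67 and -0.34, where sign flips of 4 pairs allow no exact p under 0.125. With libraries left out they were 2.42 to 2.94, 0.58 to 0.75 and -0.39 to -0.30, where 3 against 4 allow no exact p under 0.0571. *Angpt1* had 68 to 221 raw counts per library, and the effect of depth was not tested.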

Other observations

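The remaining cell type markers, which bear on what else the bead-selected cells held, were read in the same fit. In it 21.5% of all genes were higher and 22.9% lower. Of 6 smooth muscle markers *Tagln* was higher in mutant libraries, with a summed level of 3170 to 8166 in mutant and 3856 to 8758 in wild-type libraries. Of 7 fibroblast markers 2 were higher and 2 lower (30302 to 39274 and 28680 to 38226). Of 7 astrocyte markers *Gja1*, a gap junction gene that other cells also express, was higher and *Aldh1l1* lower, and *Gja1* made up most of the summed level (18506 to 22170 and 11008 to 13085). None of 7 markers of microglia and macrophages passed in edgeR's quasi-likelihood test, 0 did so at an unadjusted p under 0.05, and their summed level ran from 4192 to 14660 and from 4861 to 17151. Of 4 lymphatic endothelial markers tested *Flt4* was higher and the other 3 did not pass. *Flt4* made up most of the summed level (9498 to 16055 and 8591 to 9488), and *Ccl21a* was at 0 in every library.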
